A study of Homo sapiens with 96 samples.

Results

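A549 cells, an established human lung adenocarcinoma line, were exposed to 10 µM gallic acid, the highest of the 3 doses given, and compared with cells that received vehicle only. The comparison rests on 6 of the 96 RNA sequencing libraries of the study: replicates 1 to 3 of gallic acid at 10 µM and replicates 1 to 3 of the vehicle of the same batch, chosen by their labels. The study covers extracts of Paeoniae Radix, the dried peony root, in a first batch, and 8 of its ingredients at 10, 2 or 0.4 µM in a second batch of 75 libraries and 25 groups. All groups compared here are unmodified A549 cells of the second batch: vehicle, gallic acid at 10, 2 and 0.4 µM, and benzoic acid at 10 µM, each with 3 libraries. The test draws on all 75 libraries. A range of means comes from 21 groups given albiflorin, benzoic acid, catechin, hederagenin, oleanolic acid, paeoniflorin or paeonol at these 3 doses. The labels give neither how long the cells were exposed nor what the vehicle was. They also do not say whether replicates were separate cultures, so that p-values reflect differences among libraries that could be technical only.

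Gallic acid is a plant phenolic acid, a benzoic acid that carries hydroxyl groups on its ring and is easily oxidised. Cells answer oxidised and electrophilic compounds in part through HMOX1, heme oxygenase 1, which breaks heme down to biliverdin, iron and carbon monoxide and is controlled by the activator NRF2 and the repressor BACH1. When folding capacity in the endoplasmic reticulum (ER) falls short, the sensors ATF6, IRE1 and PERK start the unfolded protein response. Raised transcription of ER chaperones is one part of it. The coactivator YAP, with TEAD factors on DNA, drives genes such as CCN2 and AMOTL2 in spread, adherent cells and leaves them when it is held in the cytoplasm.

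The 3 gallic acid libraries were not alike. The share of all counts on the 37 mitochondrially encoded genes was 2.40% in replicate 1, 18.9% in replicate 2 and 3.25% in replicate 3. In the vehicle libraries it was 14.5%, 14.8% and 14.9%. Replicates 1 and 3 thus lay far below the vehicle range and replicate 2 above it, and the group means of 8.18% ± 9.30 and 14.7% ± 0.222 (SD, n = 3 each) did not differ in an exact two-sided permutation test (difference -6.55 points, p = 0.4, where the smallest p this design allows is 0.1). Low shares were not confined to gallic acid: 22 of the 75 libraries of the batch, gallic acid libraries included, were under 8%. None of the vehicle libraries was among them. Low shares were spread unevenly over the ingredients. Catechin at 10 µM had 13.6, 4.32 and 7.84% (replicates 1 to 3), while the lowest albiflorin library was at 11.4%. The libraries held 18.8 M, 26.1 M and 21 M counts with gallic acid (replicates 1 to 3) and 24.2 M, 25.2 M and 25.3 M with vehicle.

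**Figure D1:**
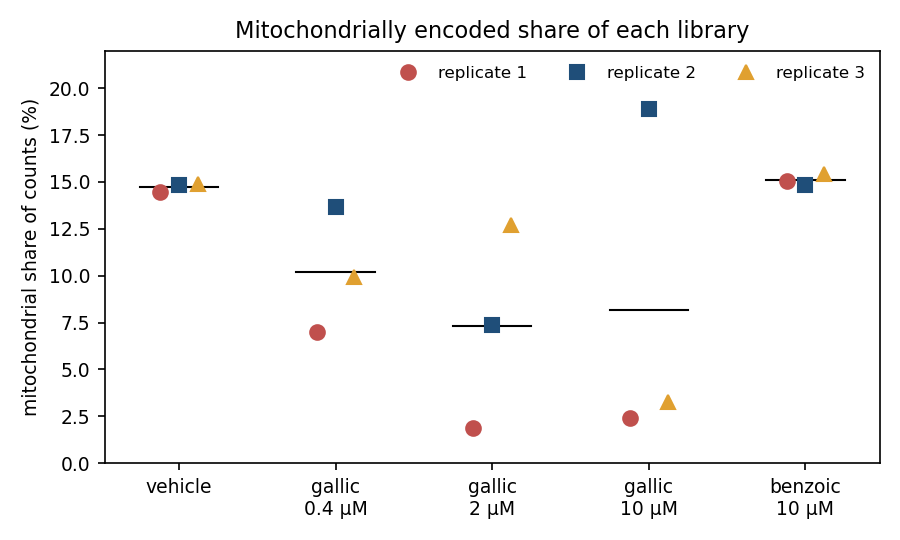
Share of all counts on mitochondrially encoded genes (%, vertical axis) in each library of vehicle, gallic acid at 0.4, 2 and 10 µM and benzoic acid at 10 µM. Points are libraries, marked by replicate number, and lines are group means. At 10 µM gallic acid, replicate 2 stands at 18.9% and replicates 1 and 3 at 2.40% and 3.25%.

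The same 2 libraries differed from vehicle along gene length and base composition. Genes were put into 10 bins by GC content of their longest transcript. From the lowest to the highest bin the median log2 difference from the vehicle mean went from -0.50 to 0.58 in replicate 1 and from -0.34 to 0.48 in replicate 3. In replicate 2 the bin medians stayed between -0.05 and 0.04. Over 10 bins of transcript length the median fell from 0.46 to -0.64 in replicate 1 and from 0.32 to -0.37 in replicate 3, while in replicate 2 the bin medians stayed between -0.01 and 0.01. Replicates 1 and 3 therefore held relatively more counts on short, GC-rich genes, and replicate 2 did not. The part of the mitochondrial share, GC content and length in each result below was not tested. Many results are given by replicate, with the value in replicate 2, while others have only their log2 change or call.

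**Figure D2:**
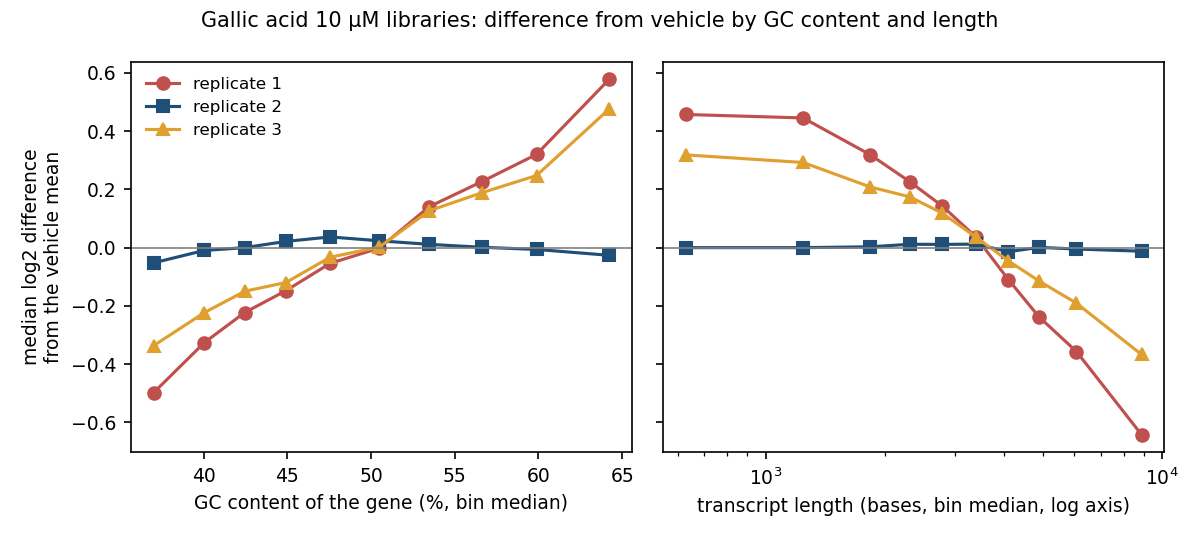
Median log2 difference of each gallic acid 10 µM library from the vehicle mean (vertical axis) for 10 bins of genes by GC content (left, %) and by transcript length (right, bases, log axis). Lines are replicates. Replicates 1 and 3 climb with GC content, to 0.58 and 0.48 in the highest bin, and drop with length, while replicate 2 stays near 0.

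All 6 libraries carried the transcripts of the labelled line. The 7 epithelial and A549 markers summed to 20811, 13421 and 19527 CPM (counts scaled to each library's total) with gallic acid (replicates 1 to 3) and to between 14864 and 14930 CPM with vehicle. The 5 endothelial markers and 7 of the 8 blood and immune markers were under 1 CPM in every one of them, as were 4 of the 7 fibroblast markers. The fibroblast markers summed to 79.9, 39.3 and 81.9 CPM with gallic acid and to between 53.8 and 61.5 CPM with vehicle, so both sums were high in the 2 libraries with a low mitochondrial share and low in the third. In bulk RNA, fewer cells of a type and less RNA per cell cannot be told apart.

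Across 18324 genes tested, 2469 differed between gallic acid at 10 µM and vehicle (13.5%, edgeR quasi-likelihood test over all 75 libraries of the batch, Benjamini-Hochberg adjusted p under 0.05). Of these, 1560 were higher (8.51% of the genes tested) and 909 lower (4.96%), and 566 differed by at least 2-fold. Their size rested mainly on replicates 1 and 3. The genes called higher had a median log2 difference from the vehicle mean of 1.08 in replicate 1, 0.18 in replicate 2 and 0.78 in replicate 3, and those called lower -0.90, -0.23 and -0.60. Replicate 2 lay above all 3 vehicle libraries in 1133 of the 1560 and below all 3 in 877 of the 909. Among all 18324 genes tested it lay above all 3 in 6227 and below all 3 in 6290. The groups did not overlap in 2000 of the 2469 genes called. Over all genes tested, the 3 gallic acid libraries all lay above the vehicle libraries in 2574 and below them in 2926. Replicate 2 is one of the libraries the 2469 genes were called from, so the counts are a description only. A fit on the 6 libraries alone called 0 genes, with 3537 at an unadjusted p under 0.05, and DESeq2 on the whole batch called 3024. Without gallic acid replicate 1, 2 or 3 the count was 141, 7324 or 780, and without vehicle replicate 1, 2 or 3 it was 753, 827 or 811.

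Further fits chosen after seeing the data bear on the uneven libraries. With the mitochondrial share of each library as a covariate, 1936 genes differed (10.6%, 1072 higher and 864 lower), of which 1474 were among the 2469 and none of them with the opposite sign. Replicate 2 set alone against vehicle, with the spread of the whole batch, gave 11 genes (0.0600%, 0.0327% higher and 0.0273% lower), among them HMOX1, CLK1, TSPYL2, MAT2A, PLPP5 and HID1 higher, and CCN2, KLF6, LBH and ZNF544 lower.

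HMOX1 rose at 10 µM gallic acid in every replicate, whatever the mitochondrial share. Its level was 123, 124 and 119 CPM in vehicle replicates 1 to 3 and 320, 330 and 288 CPM with gallic acid, so the groups did not overlap and replicate 2 was the highest library. The log2 change was 1.36 ± 0.15 (SE from the fit over all 75 libraries, n = 3 per group, edgeR adjusted p = 1.84e-08). With the mitochondrial share as a covariate it was 1.55 ± 0.11 (edgeR adjusted p = 1.07e-15). The fit on the 6 libraries alone gave an edgeR adjusted p of 0.0824, the only one of 16 alternatives in which HMOX1 did not pass. Among 21 groups given other ingredients, mean HMOX1 ranged from 119 to 155 CPM, the highest with oleanolic acid at 10 µM.

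Some genes of iron handling changed as well: of 13 on that list 3 rose, HMOX1 and CISD1 included, and 1 fell, where 8.51% of all genes tested rose and 4.96% fell. The count of 3 became 1 without gallic acid replicate 1 or without any 1 of the vehicle libraries, and 2 without gallic acid replicate 3. FTH1, the ferritin heavy chain that stores iron, went from 3729, 3756 and 3732 CPM to 5239, 5380 and 4570 CPM (log2 0.44 ± 0.14, edgeR adjusted p = 0.032). FBXL5, an iron-sensing ubiquitin ligase subunit that marks the iron regulator IRP2 for degradation, fell from 33, 32.9 and 32.9 CPM to 21.4, 24 and 22.4 CPM (log2 -0.54 ± 0.08, edgeR adjusted p = 2.08e-05). Neither gene's groups overlapped, and in both replicate 2 lay among or near the other gallic acid libraries. FTH1 no longer passed without gallic acid replicate 1 or without any 1 of the vehicle libraries, while FBXL5 passed without each library in turn. The means of FBXL5 in the 21 groups given other ingredients, 24.7 to 31.6 CPM, were all below vehicle and all above gallic acid at 10 µM. TFRC, the transferrin receptor that takes iron up, was at 186, 335 and 268 CPM against 277, 281 and 281 CPM and did not pass (edgeR adjusted p = 0.768).

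Of 28 NRF2 target genes, 7 rose and none fell (median log2 0.14, against 0.02 over all genes tested, of which 8.51% rose). Besides HMOX1 and FTH1 these were AKR1C1, AKR1C2, PGD, CBR1 and NQO1, and they did not share the evenness of HMOX1. AKR1C1, an aldo-keto reductase, was at 387, 386 and 404 CPM with vehicle and at 862, 466 and 653 CPM with gallic acid. NQO1, a quinone reductase, was at 1514, 1527 and 1517 CPM and at 2272, 1579 and 2036 CPM. In both, replicate 2 lay closest to vehicle. GCLM and SRXN1, also NRF2 targets, had log2 changes of 0.10 and 0.07 and did not pass. Without gallic acid replicate 1 the count of 7 became 1, without replicate 3 it was 4, and without vehicle replicate 1, 2 or 3 it was 4, 3 or 3.

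**Figure D3:**
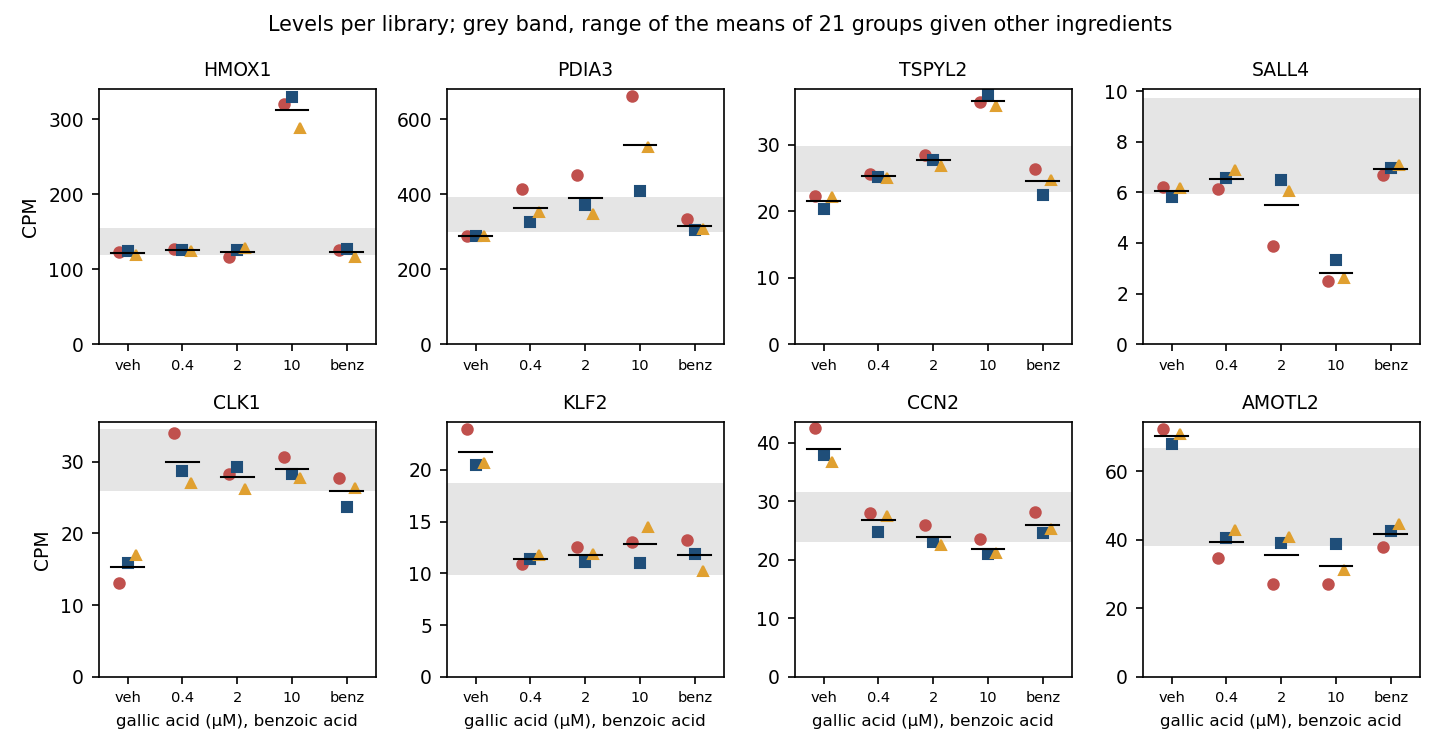
Levels (CPM, vertical axes starting at 0) of 8 genes in each library of vehicle, gallic acid at 0.4, 2 and 10 µM and benzoic acid at 10 µM. Circles, squares and triangles are replicates 1, 2 and 3, lines are group means, and the grey band is the range of the means of 21 groups given other ingredients. HMOX1 rises above the band at 10 µM only, while the vehicle libraries of TSPYL2, CLK1, KLF2, CCN2 and AMOTL2 lie outside it.

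Chaperones and folding enzymes of the ER rose together. Of 18 genes of the unfolded protein response 14 rose and none fell (8.51% of all genes tested rose), with a median log2 change of 0.82. The median difference from vehicle was 1.03 in replicate 1, 0.43 in replicate 2 and 0.84 in replicate 3, and replicate 2 lay above all 3 vehicle libraries in 17 of the 18 (6227 of the 18324 genes tested). The list's median GC content was 45.5% and its median transcript length 2989 bases, against 48.9% and 3077 bases over all genes tested. Median lengths were 4090 bases for YAP and TEAD targets, 4544.5 for TGF-beta and mesenchymal genes and 4589 for fatty acid synthesis. They were 1917 for cytosolic ribosomal proteins, 1832 for the nuclear-encoded respiratory chain and 1746 for peroxide and superoxide scavengers. For NRF2 targets, ribosome biogenesis, autophagy and lysosome, and cholesterol synthesis they were 2665, 3058.5, 3215 and 3087. With the mitochondrial share as a covariate 14 of the 18 unfolded protein response genes again rose (5.85% of all genes tested). Without gallic acid replicate 1 the count was 9, and without any other single library of the comparison 13 or 14. In the fit on the 6 libraries alone, and in that of replicate 2 against vehicle with the spread of the whole batch, 0 passed with edgeR.

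HSPA5, also called BiP, is the main ER chaperone and a brake on all 3 sensors. It was at 629, 631 and 627 CPM with vehicle and at 1412, 907 and 1207 CPM with gallic acid (log2 0.90 ± 0.21, edgeR adjusted p = 0.00393). HSP90B1, the ER member of the HSP90 family, went from 835, 837 and 841 CPM to 2938, 1174 and 2109 CPM (log2 1.31 ± 0.24, edgeR adjusted p = 0.000552). PDIA3, a disulfide isomerase that works on glycoproteins, went from 289, 288 and 288 CPM to 662, 409 and 526 CPM (log2 0.88 ± 0.12, edgeR adjusted p = 8.15e-07). In all of these replicate 2 was the lowest gallic acid library and still well above vehicle. The lectin chaperones differed from each other. CALR, calreticulin, which is soluble in the ER lumen, was at 524, 522 and 515 CPM and at 1413, 723 and 999 CPM. CANX, calnexin, its membrane-bound counterpart, was at 759, 794 and 793 CPM and at 1047, 1109 and 1104 CPM, a nearly even rise in which replicate 1 was the lowest. DNAJB9, a co-chaperone that holds the sensor IRE1 in check, also rose evenly, from 10.9, 10.4 and 11.2 CPM to 17.8, 16.3 and 18.2 CPM (log2 0.69 ± 0.14, edgeR adjusted p = 0.00177). CRELD2, an ER-resident secreted protein, had the largest log2 change in the list and an uneven one, from 15.8, 17.1 and 16.7 CPM to 92.6, 21.6 and 69.6 CPM. The 4 members that did not pass were HERPUD1, SEL1L and EDEM1, which serve the degradation of misfolded ER proteins, and DNAJC3. Their log2 changes were 0.16, -0.27, -0.40 and 0.09 in that order, so SEL1L and EDEM1 leaned downward. Without gallic acid replicate 2, 2 of the 18 genes were called lower (3624 of all 18324 genes tested). HERPUD1 was at 34.5, 46.1 and 38.1 CPM with gallic acid and 36.7, 35.1 and 34.2 CPM with vehicle.

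The promoters of these genes are shown because 10 of the 17 members with a RefSeq promoter hold letters of an ER stress element within 250 bases before the start. The element is a site bound by ATF6 or XBP1 together with the factor NF-Y, and was searched on both strands in 2 forms, a longer one (CCAAT and CCACG with 9 bases between) and a shorter one (ATTGG and CCACG with 1 base between). No promoter printed holds both. The longer form was found in HSPA5, HSP90B1, PDIA6, CALR, CANX, CRELD2 and XBP1 and the shorter in SDF2L1, HYOU1 and HERPUD1. Either form occurs in 43 of 27305 genes with a promoter (0.157%). Bases are printed in gene direction, 5′ to 3′, up to the base before the start, with the matching letters in capitals. The regions in RefSeq's GRCh38.p14 are chr9:125241344-125241453 (HSPA5, minus strand), chr12:103930200-103930409 (HSP90B1, plus strand), chr22:49918524-49918633 (CRELD2, plus strand) and chr11:119057206-119057415 (HYOU1, minus strand).
HSPA5: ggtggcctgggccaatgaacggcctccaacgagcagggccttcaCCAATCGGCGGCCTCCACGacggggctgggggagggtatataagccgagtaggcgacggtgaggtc
HSP90B1: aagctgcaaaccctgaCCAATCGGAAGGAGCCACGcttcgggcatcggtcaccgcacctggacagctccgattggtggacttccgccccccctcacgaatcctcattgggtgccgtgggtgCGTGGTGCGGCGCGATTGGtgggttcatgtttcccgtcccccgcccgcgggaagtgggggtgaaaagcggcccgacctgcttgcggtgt
CRELD2: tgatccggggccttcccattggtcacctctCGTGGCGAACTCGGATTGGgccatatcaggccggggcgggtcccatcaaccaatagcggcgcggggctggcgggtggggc
HYOU1: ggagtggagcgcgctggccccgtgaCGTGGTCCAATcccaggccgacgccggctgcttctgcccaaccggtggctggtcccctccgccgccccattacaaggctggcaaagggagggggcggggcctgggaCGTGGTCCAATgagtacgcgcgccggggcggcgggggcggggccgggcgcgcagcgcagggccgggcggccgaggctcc
HSP90B1 holds 2 matches on opposite strands, at 194 and 89 bases before the start, and HYOU1 2 matches on the reverse strand, at 185 and 79 bases. HYOU1, an ER chaperone related to HSP70, rose by 0.90 ± 0.16 on the log2 scale (edgeR adjusted p = 0.000361). A match is a description of the letters and was not tested as a site. PDIA4, MANF, DNAJB9 and DNAJB11 rose without either form in this window, and HERPUD1 has one and did not pass.

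**Figure D4:**
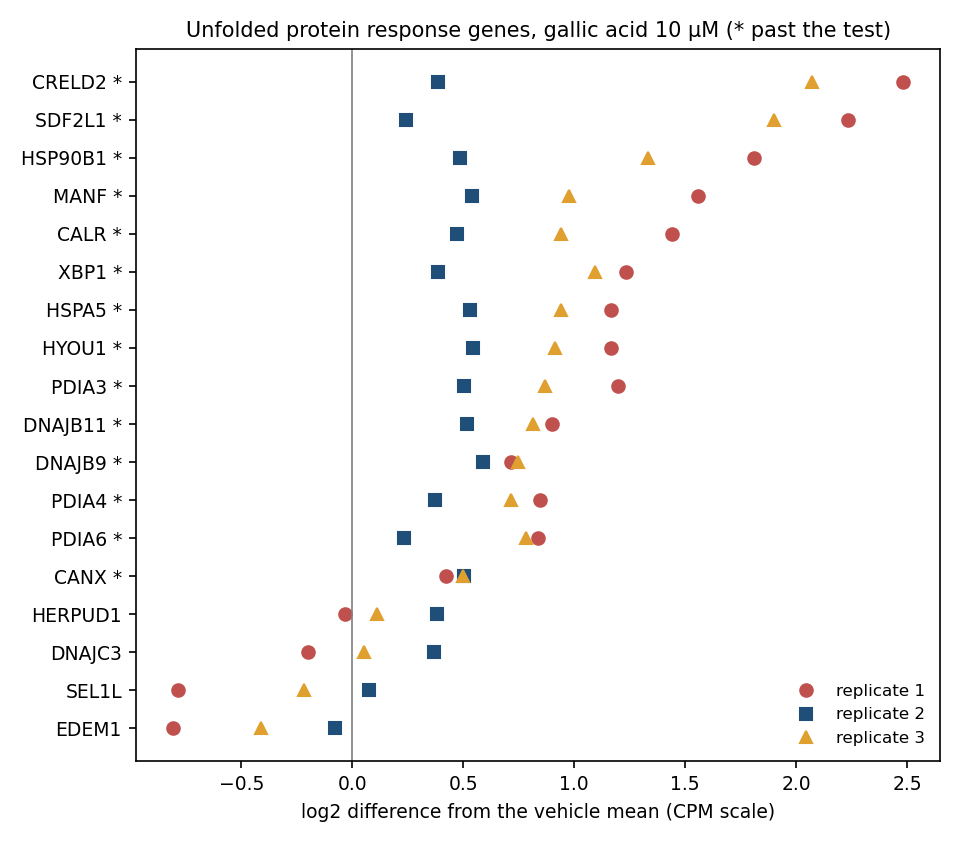
Log2 difference of each gallic acid 10 µM library from the vehicle mean (horizontal axis) for the 18 genes of the unfolded protein response, ordered by their log2 change. Points are replicates and an asterisk marks genes past the edgeR test. The 14 marked genes are above 0 in all 3 replicates, with replicate 2 the lowest in all of them but CANX.

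Other proteins of the secretory route, singled out after their values were seen, rose as well. FICD, the ER enzyme that modifies BiP, went from 7.75, 7.20 and 6.71 CPM to 11.4, 10.7 and 10.0 CPM (log2 0.57 ± 0.11, edgeR adjusted p = 0.00067). AGR2, an ER protein of the disulfide isomerase family made by airway cells, went from 406, 404 and 408 CPM to 660, 618 and 561 CPM (log2 0.59 ± 0.14, edgeR adjusted p = 0.0064). Both rises were nearly even over the replicates, but AGR2 no longer passed without gallic acid replicate 1. NUCB2, a calcium-binding protein of the secretory route, rose by 1.09 ± 0.14 and PPIB, the ER prolyl isomerase cyclophilin B, by 0.79 ± 0.13, in each case least in replicate 2.

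Several genes outside these pathways moved to a like degree in every replicate. TSPYL2, a nuclear protein of the nucleosome assembly family, went from 22.3, 20.3 and 22.1 CPM to 36.4, 37.6 and 35.8 CPM (log2 0.76 ± 0.11, edgeR adjusted p = 5.47e-06). SALL4, a zinc finger transcription factor of stem cells, fell from 6.20, 5.82 and 6.19 CPM to 2.50, 3.32 and 2.61 CPM (log2 -1.11 ± 0.15, edgeR adjusted p = 9.98e-07). THBD, thrombomodulin, a surface receptor for thrombin, fell from 38.1, 37.3 and 35.7 CPM to 16.2, 22.7 and 17.9 CPM (log2 -0.96 ± 0.12, edgeR adjusted p = 1.66e-07). None of these groups overlapped, and the mean of each with gallic acid lay outside the range of the 21 groups given other ingredients: 23 to 29.8 CPM for TSPYL2, 5.93 to 9.72 CPM for SALL4 and 31.7 to 50.1 CPM for THBD. For TSPYL2 the means of all those groups also lay above the vehicle libraries. These genes were picked for small p-values in the same data, so the lack of overlap is a description only. LBH, a regulator of transcription in development, fell from 233, 231 and 224 CPM to 128, 151 and 125 CPM (log2 -0.77 ± 0.08, edgeR adjusted p = 8.48e-09), and MARCHF4, a membrane-bound ubiquitin ligase, fell by 1.17 ± 0.16 on the log2 scale.

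Another set of genes differed from vehicle as clearly. There, as in TSPYL2, the vehicle libraries also differed from cells given any other ingredient. CLK1, a kinase of splicing factors, was at 13.1, 15.9 and 17.1 CPM with vehicle and at 30.7, 28.3 and 27.8 CPM with gallic acid (log2 0.91 ± 0.10, edgeR adjusted p = 8.48e-09). Its means in the 21 groups given other ingredients ran from 25.9 to 34.5 CPM, all above vehicle. KLF2, a Kruppel-like transcription factor, was at 24, 20.5 and 20.7 CPM with vehicle and 13, 11 and 14.5 CPM with gallic acid, and at 9.83 to 18.7 CPM in the other groups. For both genes gallic acid thus lay within the range of the other ingredients.

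YAP and TEAD targets were among these genes. Of 20 tested, 9 fell and none rose (median log2 -0.45, where 4.96% of all genes tested fell), with medians of -0.58, -0.15 and -0.42 in replicates 1 to 3. With the mitochondrial share as a covariate 9 fell (4.72% of all genes tested). With replicate 2 alone and the spread of the whole batch 1 passed, CCN2. Leaving out a library moved the count to 3 without gallic acid replicate 1, to 4 without replicate 3 and to 4, 4 and 3 without vehicle replicates 1, 2 and 3. CCN2, a matricellular protein and the most used readout of YAP, fell from 42.6, 37.9 and 36.7 CPM to 23.6, 21 and 21.2 CPM (log2 -0.83 ± 0.11, edgeR adjusted p = 8.15e-07). AMOTL2, an angiomotin that binds YAP at cell junctions, fell from 72.2, 67.8 and 70.9 CPM to 27.2, 38.6 and 31.1 CPM (log2 -1.12 ± 0.13, edgeR adjusted p = 1.34e-07). NUAK2, a kinase of the AMPK family, fell by 0.78 ± 0.11 and ANKRD1, a nuclear ankyrin repeat protein, fell by 0.50 ± 0.14 on the log2 scale, the latter not past the threshold without gallic acid replicate 1 or 3 or vehicle replicate 3. The other 5 called were LATS2, a kinase that restrains YAP, AXL, PTPN14, DLC1 and FOXF2. None of these 5 passed without gallic acid replicate 1 or without any 1 of the vehicle libraries. FOXF2 also did not pass with the mitochondrial share as a covariate. CCN1 was at 17.5, 16 and 16.3 CPM with gallic acid and 30.3, 25.4 and 23.2 CPM with vehicle, without overlap, but did not pass (edgeR adjusted p = 0.146). In 6 of the 20 genes all 21 groups given other ingredients were below vehicle (9.06% of all genes tested), and in 11 of the 20 gallic acid at 10 µM was below all of those groups (11.6% of all genes tested). The means of the other groups were 23.1 to 31.7 CPM for CCN2 and 38.3 to 66.6 CPM for AMOTL2.

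The CCN2 promoter is shown because it holds the letters GGAATG, the core of TEAD sites, 3 times on the forward strand, at 169, 104 and 95 bases before the start (chr6:131951373-131951562 in GRCh38.p14, minus strand, matches in capitals). The letters occurred on either strand in 9 of 16 list members with a RefSeq promoter and in 14.3% of all genes with one.
CCN2: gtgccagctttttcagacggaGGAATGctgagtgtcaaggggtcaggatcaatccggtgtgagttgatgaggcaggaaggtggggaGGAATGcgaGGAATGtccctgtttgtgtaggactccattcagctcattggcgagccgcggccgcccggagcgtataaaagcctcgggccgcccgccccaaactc

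TGF-beta and mesenchymal genes fell in 8 of 24 cases and rose in none (median log2 -0.32, where 4.96% of all genes tested fell), with medians of -0.51, -0.11 and -0.37 in replicates 1 to 3. ITGB6, the integrin chain that helps activate latent TGF-beta, was at 6.41, 5.38 and 5.09 CPM with vehicle and at 0.435, 3.20 and 2.52 CPM with gallic acid (log2 -1.43 ± 0.27, edgeR adjusted p = 0.000619). PMEPA1, a feedback inhibitor of TGF-beta signalling, was lowest in replicate 2, at 256, 215 and 242 CPM against 307, 288 and 274 CPM (log2 -0.29). It no longer passed without any 1 of the gallic acid libraries or without vehicle replicate 1 or 2. The count of 8 became 1 or 2 without gallic acid replicate 1 or 3, 13 without replicate 2, and 2, 3 and 5 without vehicle replicates 1, 2 and 3. With the mitochondrial share as a covariate 7 fell (4.72% of all genes tested).

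The genes with the largest changes under the naming rule were mostly low or uneven. Several of the 10 largest rises were hardly seen in replicate 2. ANP32B, a histone chaperone, was at 281, 291 and 305 CPM with vehicle and at 2483, 323 and 1142 CPM with gallic acid. HMGN5, a nucleosome-binding protein, was at 4.44, 3.72 and 4.24 CPM and at 44.5, 4.96 and 16.2 CPM, and TPM2, a tropomyosin, at 249, 264 and 266 CPM and at 1749, 293 and 906 CPM. CDRT4 rose in all 3, from 5.28, 5.18 and 2.99 CPM to 21.6, 12.5 and 16.5 CPM (log2 1.91 ± 0.58, edgeR adjusted p = 0.0252), but passed neither without gallic acid replicate 1 or 3 nor without any 1 of the vehicle libraries. The other rises were the antisense gene CERS6-AS1 and the pseudogene RPL12P28, whose reads may be shared with other genes, and the low genes IGSF6, TMEM179, MEF2B and CALY. Among the 10 largest falls were ITGB6 (above), NSUN7, THAP2, KCNH1 and SSPN. KCNH1, a potassium channel, fell from 4.4, 4.57 and 4.41 CPM to 1.3, 2.46 and 1.47 CPM (log2 -1.34 ± 0.30, edgeR adjusted p = 0.00357). It no longer passed without gallic acid replicate 1. SSPN passed neither without gallic acid replicate 1 or 3 nor without vehicle replicate 1 or 2. Pseudogenes and intronic transcripts among the 10 largest falls had at most 10.6 CPM in any of the 6 libraries (ANKRD10-IT1, MEIS3P2, DPY19L2P1 and TCAF1P1).

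Genes of abundant housekeeping machinery that rose did so mainly in replicates 1 and 3. Of 48 cytosolic ribosomal protein genes 13 rose and none fell (8.51% of all genes tested rose and 4.96% fell), with medians of 0.58, 0.03 and 0.34 in replicates 1 to 3. RPS3, of the small subunit, was at 717, 697 and 714 CPM with vehicle and at 2775, 760 and 1976 CPM with gallic acid. Ribosome biogenesis genes rose in 10 of 24 cases and fell in none, with medians of 0.75, 0.04 and 0.49. NPM1, a nucleolar chaperone, was at 1175, 1268 and 1273 CPM and at 4082, 1332 and 2751 CPM. Without gallic acid replicate 1 both edgeR counts were 0, without replicate 2 they were 22 and 15, without replicate 3 4 and 6, and without vehicle replicates 1, 2 and 3 in turn 5, 6 and 5 and 2, 4 and 4. The nuclear-encoded respiratory chain had 6 higher and 1 lower of 33, with medians of 0.43, -0.11 and 0.42. The count of 6 became 0, 18 and 2 without gallic acid replicates 1, 2 and 3, and 2 without any 1 of the vehicle libraries. COX6C, a subunit of cytochrome c oxidase, was at 65.2, 67.5 and 63.8 CPM and at 298, 63 and 231 CPM. Replicate 2 of COX6C lay below the vehicle libraries, and with the mitochondrial share as a covariate COX6C did not pass (edgeR adjusted p = 0.1).

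**Figure D5:**
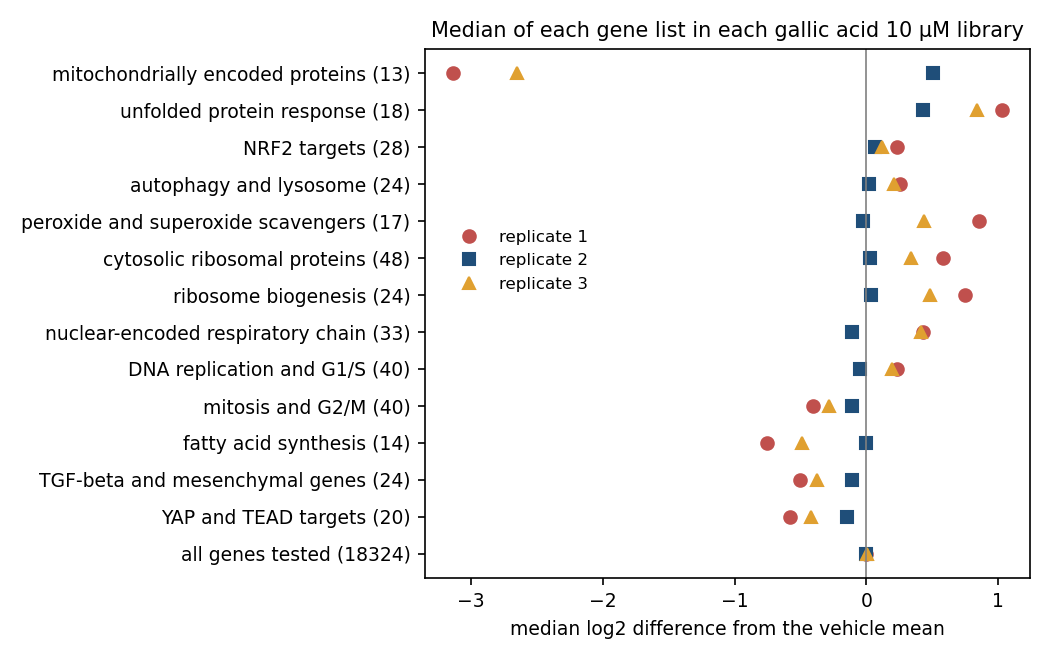
Median log2 difference from the vehicle mean (horizontal axis) of the genes of each list in each gallic acid 10 µM library, with the number of genes tested in brackets. Points are replicates. The unfolded protein response is above 0 in all 3 (1.03, 0.43 and 0.84), while ribosome biogenesis is at 0.75, 0.04 and 0.49 and the mitochondrially encoded proteins change sides.

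Transcripts of the mitochondrially encoded proteins split the gallic acid libraries. None of the 13 passed in the batch-wide test (median log2 -0.85), and their median difference from vehicle was -3.14 in replicate 1, 0.50 in replicate 2 and -2.65 in replicate 3. MT-CO1, a core subunit of cytochrome c oxidase, was at 24752, 25771 and 25801 CPM with vehicle and at 3728, 33328 and 5639 CPM with gallic acid. MT-RNR2, the large mitochondrial ribosomal RNA, was at 27517, 27586 and 26756 CPM and at 9316, 34764 and 10880 CPM. With the mitochondrial share as a covariate, the median of the 13 was -0.04. That share is counted on these same genes, so the fit itself draws their difference toward 0 and the value shows nothing further.

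The chromosomal passenger complex, named by its kinase Aurora B in the title of the series, showed no call. AURKB, that kinase, was at 79.5, 79.5 and 83.2 CPM with vehicle and at 105, 82.9 and 88.9 CPM with gallic acid (log2 0.19, edgeR adjusted p = 0.144). INCENP, its scaffold, had a log2 change of 0.01, BIRC5, survivin, of 0.30 and CDCA8, borealin, of -0.48 (edgeR adjusted p = 0.978, 0.104 and 0.134). Of 40 genes of mitosis and G2/M 2 rose and 3 fell, and of 40 genes of DNA replication and G1/S 7 rose and 1 fell, where 8.51% of all genes tested rose and 4.96% fell. The medians in replicates 1 to 3 were -0.40, -0.11 and -0.28 for mitosis and 0.23, -0.05 and 0.19 for DNA replication. Left-out libraries moved the counts: without gallic acid replicates 1, 2 and 3 the 7 became 1, 16 and 3, the 2 became 0, 5 and 1, and the 3 became 0, 14 and 0. Without vehicle replicates 1, 2 and 3 the 7 became 3, 3 and 4, the 2 became 0 each time, and the 3 became 1, 0 and 0. CCNE1, cyclin E1 of the G1/S step, rose evenly from 20.8, 19 and 20.0 CPM to 25.8, 25.5 and 27.6 CPM (log2 0.40 ± 0.08, edgeR adjusted p = 0.00181), and its means in the groups given other ingredients were 22.9 to 29.3 CPM.

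Sets of genes differed in how their log2 changes went with dose. All 3 doses were set against the same vehicle libraries. At 2 µM, 112 genes passed (0.611%, 60 higher, 0.327%, and 52 lower, 0.284%), and at 0.4 µM 13 (0.0709%, 4 higher, 0.0218%, and 9 lower, 0.0491%). Left-out libraries moved both counts: at 2 µM to 6, 327 and 2867 without gallic acid replicates 1, 2 and 3 and to 7, 19 and 16 without vehicle replicates 1, 2 and 3, and at 0.4 µM to 7 and 7 without gallic acid replicates 1 and 2 and to 3, 7 and 7 without the vehicle replicates. HMOX1 had log2 changes of 1.36, 0.01 and 0.04 at 10, 2 and 0.4 µM and passed at 10 µM only. CLK1 changed by 0.91, 0.86 and 0.96, KLF2 by -0.76, -0.88 and -0.93, CCN2 by -0.83, -0.71 and -0.55 and AMOTL2 by -1.12, -0.98 and -0.84, and all of these passed at all 3 doses. PDIA3 had log2 changes of 0.88, 0.44 and 0.34 and passed at 10 µM only. None of the 18 genes of the unfolded protein response passed at 2 or 0.4 µM, where few of all genes tested did. Their median log2 change was 0.31 at 2 µM and 0.17 at 0.4 µM, against 0.02 and 0.01 over all genes tested. The mitochondrial share was 1.87, 7.38 and 12.7% in the 2 µM libraries and 7.01, 13.7 and 9.96% in the 0.4 µM libraries (replicates 1 to 3), and replicate 1 of both held COL1A2, a fibroblast collagen, at 595 and 532 CPM, against at most 0.381 CPM in the libraries of 10 µM and vehicle.

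A direct test of 10 µM against 0.4 µM, which uses no vehicle library, gave 102 genes (0.557%, 59 higher, 0.322%, and 43 lower, 0.235%), and 21, 1948 and 39 without 10 µM replicates 1, 2 and 3 and 34 without 0.4 µM replicate 1. HMOX1 was higher by 1.32 ± 0.15 (edgeR adjusted p = 1.45e-07), TSPYL2 by 0.53 ± 0.11 and FICD by 0.73 ± 0.11, and SALL4 was lower by 1.21 ± 0.15 on the log2 scale. Of the 18 genes of the unfolded protein response 7 were higher and none lower, among them DNAJB9 (0.78 ± 0.14, edgeR adjusted p = 0.00207), MANF (0.95 ± 0.18, edgeR adjusted p = 0.00257) and HSP90B1 (0.97 ± 0.24, edgeR adjusted p = 0.0417). CLK1, KLF2, CCN2 and AMOTL2 differed between the doses by -0.05, 0.17, -0.29 and -0.28 and did not pass, and no YAP and TEAD target did.

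Benzoic acid, the same ring acid without the hydroxyl groups, was given at the same 10 µM, and its libraries had mitochondrial shares of 15, 14.9 and 15.4%. These lay near those of vehicle, so the benzoic acid libraries do not match the uneven shares of the gallic acid libraries. The difference in expression between the acids, the 1 pair of compounds compared, covered 1594 genes (8.70%, 1053 higher with gallic acid, 5.75%, and 541 lower, 2.95%). It was 58, 7150 and 254 without gallic acid replicates 1, 2 and 3, and 578, 162 and 176 without benzoic acid replicates 1, 2 and 3. HMOX1 was 123 ± 5.94 CPM (SD, n = 3) with benzoic acid and was higher with gallic acid by 1.35 on the log2 scale (95% interval 1.04 to 1.65, edgeR adjusted p = 4.13e-08). The gallic acid libraries are those of the comparison with vehicle, and 14 of the 18 genes of the unfolded protein response were higher and none lower. HSPA5 differed by 0.83 (0.42 to 1.24), HSP90B1 by 1.23 (0.74 to 1.73), DNAJB9 by 0.82 (0.53 to 1.11) and CANX by 0.43 (0.21 to 0.66). SALL4 differed by -1.29 (-1.58 to -1.0) and THBD by -0.89 (-1.13 to -0.66). The acids did not differ past the threshold in CLK1 (0.16, interval -0.03 to 0.35), KLF2 (0.12, -0.18 to 0.43), KLF6 (-0.01, -0.20 to 0.19), CCN2 (-0.25, -0.47 to -0.03) or AMOTL2 (-0.37, -0.63 to -0.10). The intervals are of single genes and not adjusted, unlike the threshold. Those of CCN2 and AMOTL2 lie wholly on the side of lower levels with gallic acid. Among the 20 YAP and TEAD targets 2 were lower with gallic acid and none higher.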

How the data were processed

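RNA of A549 cells was sequenced from a directional library kit, per the labels' protocols. FastQC, Trim Galore, STAR, RSEM 1.3.3 and the build GRCh38 are named in the submitters' processing notes. The deposited values are RSEM expected counts per gene, of which 89.2% are whole. They were rounded to whole numbers. Whether counting used strand is not given in the sources used here. Gene symbols were updated by Ensembl ID (56558 of 60675 matched).

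Genes were tested with edgeR 4.0.16 (quasi-likelihood F-test, TMM, filterByExpr, R 4.3.3) over all 75 libraries of the second batch, with Benjamini-Hochberg adjustment over 18324 genes and a threshold of 0.05. CPM of single genes are TMM-scaled (marker sums and COL1A2 are over library totals), and differences by replicate use a prior count of 1. DESeq2 1.42.0 and limma 3.58.1 (voom) were alternatives. Totals were 15.7 M to 35.6 M counts per library. Scripts were tested on simulated data.

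Named genes were the 10 largest rises and 10 largest falls among called genes whose groups did not overlap and reached 1 CPM in either mean (clone and locus identifiers passed over), plus members of the gene lists. Genes named outside this rule (among them PPIB, AGR2, FICD, KLF2, KLF6, COX6C, RPS3, NPM1 and CCNE1) were chosen after their values were seen. Comparison, members and lists were chosen with earlier results of these data known. GC content and length are those of the longest GENCODE v29 transcript, and promoters are RefSeq's in GRCh38.p14.

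No pairing by replicate number was seen: correlations of same-numbered deviations between gallic acid and vehicle were -0.01, -0.01 and -0.03. The gallic acid libraries differed from each other far more than the vehicle libraries did. A shared effect as small as the differences among vehicle libraries could therefore be missed. No libraries held identical values. Some genes that meet the naming rule are not reported here.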

Additional observations from a re-analysis of the deposited data

How the results depend on the processing

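The gallic acid libraries differed in depth, mitochondrial share and their trends with GC content and length, and the part of these in the calls was not tested. For 10 µM gallic acid against vehicle (2469 genes) the count was 1088 with no filter on low counts, 12801 with voom and sample quality weights, 0 (edgeR, 3537 at an unadjusted p under 0.05) with only the groups compared, 11 with replicate 2 alone, and 141 to 7324 when a library was left out. For 2 µM (112 genes) it was 26 with no filter, 593 with DESeq2, 7185 with voom, 13 without the 4 libraries with COL1A2, 0 (edgeR, 2403 unadjusted) with only the groups compared, 189 with the mitochondrial share as a covariate, and 6 to 2867 when a library was left out. For 0.4 µM (13 genes) it was 5 with no filter, 62 with DESeq2, 2461 with voom, 92 with the covariate, and 3 to 9 when a library was left out. For 10 against 0.4 µM (102 genes) it was 22 with no filter, 213 with DESeq2, 10554 with voom, 0 with only the groups compared (edgeR), 503 with the covariate, and 21 to 1948 when a library was left out. For gallic against benzoic acid (1594 genes) it was 522 with no filter, 12561 with voom, 0 with only the groups compared (edgeR), 951 with the covariate, and 58 to 7150 when a library was left out. The cause of these shifts was not tested. The difference in mitochondrial share, -6.55 points, ran from -11.9 to -3.66 when a library was left out and was -5.57 over the 13 protein genes.

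With the replicate block the counts were 2510, 156, 15, 104 and 1552 for these comparisons in the same order. No pairing by replicate number was seen, though a small shared effect could be missed.

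Among 2368 values of single genes under the alternatives, 1773 kept direction and side of the threshold, 456 lost and 63 gained a call, and 55 changed sign without a call in either fit (26 with replicate 2 alone in the batch-wide fit, 11 in the fit of replicate 2 with the vehicle libraries only, and 10 with the covariate). The 21 that changed sign with a call in either fit did so for replicate 2. The fit of replicate 2 with the vehicle libraries only judges it by the spread between those 3 libraries, which is far below that of the gallic acid libraries, so its calls support nothing. There the log2 changes were 0.54 for MT-ND6, 0.37 for MT-ND2, 0.51 for MT-CO2, 0.53 for MT-ATP6, 0.29 for MT-ND3, 0.41 for MT-ND5, 0.35 for MT-RNR2, 0.52 for MT-CYB, 0.52 for MT-CO3, 0.29 for MT-ND4L, 0.39 for MT-CO1, 0.51 for MT-ND4, 0.29 for MT-ND1, 0.54 for MT-ATP8, 0.27 for TFRC, -0.088 for CA9, -0.051 for COX6C and -0.0070 for PRDX5. With replicate 2 alone in the batch-wide fit they were -0.092 for CA9, -0.056 for COX6C and -0.012 for PRDX5.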

Other observations

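Genes of lipid synthesis and of lysosomes were not described above. Of 14 genes of fatty acid synthesis 3 were lower and none higher at 10 µM gallic acid against vehicle (4.96% of all genes tested were lower and 8.51% higher), with list medians of -0.75, -0.01 and -0.49 in replicates 1 to 3. Of 25 genes of cholesterol synthesis 1 was higher and 3 lower. Of 24 genes of autophagy and lysosome 7 were higher and none lower, with medians of 0.26, 0.02 and 0.21. Of 17 peroxide and superoxide scavengers 5 were higher and none lower, with medians of 0.85, -0.02 and 0.44. Left-out libraries moved these counts. Without gallic acid replicates 1, 2 and 3 the lower genes of fatty acid synthesis numbered 0, 9 and 2 and those of cholesterol synthesis 0, 5 and 1, and the higher genes of autophagy and lysosome 0, 9 and 4 and of the scavengers 0, 10 and 3. Without vehicle replicates 1, 2 and 3 the numbers were 1, 1 and 2 for fatty acid synthesis, 3, 2 and 2 for cholesterol synthesis, 3 each time for autophagy and lysosome and 2, 1 and 2 for the scavengers. In each of these lists but that of cholesterol synthesis the median of replicate 2 was the one nearest to 0.

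Heat shock chaperones had 2 higher and 2 lower of 19, against 8.51% and 4.96% of all genes tested, and none of either without gallic acid replicate 1 or without any 1 of the vehicle libraries (edgeR). In 7 of the 19 gallic acid at 10 µM was above all 21 groups given other ingredients (11.9% of all genes tested), and in 9 of the 19 all of those groups were below vehicle (9.06%). No test was made of these positions.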
